A study of Mus musculus with 2 samples.

Results

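Neat1 and 7 genes of paraspeckle proteins (Sfpq, Nono, Pspc1, Rbm14, Matr3, Hnrnpk and Tardbp) were followed in nucleoplasmic RNA of mouse macrophages. The 8 genes were chosen by symbol, and each matched 1 gene identifier among the 55536 mouse genes of the deposited tables. All 8 passed the filter on low values, a mean scaled count of 10 or more, which 15558 genes met.

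Macrophages were grown from bone marrow of C57BL/6J mice as primary cells, and RNA was taken from their nucleoplasm, the soluble nuclear content. They had received 100 ng/ml Lipid A, the part of bacterial lipopolysaccharide that the receptor TLR4 senses, for 20 min before ribosomal RNA was depleted and the rest sequenced. There was 1 group of 2 libraries. Biological replicate 2 was made from 500 ng of RNA and biological replicate 1 from 1 µg, and the effects of input and of replicate cannot be told apart. Both carry the same donor identifier, no label says that they were separate cultures or animals, and sex and age were not collected, so n = 2 counts libraries and the spread between them may be technical. Unstimulated cells and other fractions were not analysed here. The values below are therefore levels and differences between 2 libraries, not effects of Lipid A, and no p-value was computed.

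The gene tables held 18667499 counts in replicate 2 and 18194781 counts in replicate 1, so a gene at 0 counts could still account for up to 3 counts, or 0.161 CPM (counts scaled to library size) in replicate 2 and 0.165 CPM in replicate 1. TPM is a measure of transcript abundance that is corrected for transcript length and scaled to a fixed total within each table. All 10 macrophage markers stood at 1 TPM or more in both libraries, with a summed TPM of 3633 in replicate 2 and 3955 in replicate 1. None of 6 neutrophil, 4 B cell, 4 T and NK cell, 4 erythroid, 3 stromal or 3 mast cell markers did. The megakaryocyte markers Pf4 and Itga2b did, the only 2 of 3 in that list. Mitochondrial genes made up 10.5% of replicate 2 counts and 3.19% of replicate 1 counts, and the part of this difference in the ratios below was not tested. In bulk RNA, fewer cells of a type and less RNA per cell cannot be told apart.

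Paraspeckles are nuclear bodies built on the long noncoding RNA Neat1, around which a set of RNA-binding proteins assembles. The gene makes a short, polyadenylated RNA and a long RNA that starts at the same promoter and runs through the short RNA's end, and the long RNA is the one that forms the scaffold. SFPQ, NONO and PSPC1 form the DBHS family (Drosophila behaviour and human splicing), whose members pair with each other, and SFPQ and NONO bind along the long RNA. HNRNPK is known from human cells to hinder the polyadenylation that ends the short RNA, and TDP-43, encoded by Tardbp, is known to favour it.

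The sequences below show where the short and the long Neat1 RNA part. Neat1 lies on the minus strand of chromosome 19 (5824708 to 5845478, mm10), and its sequences are those of GENCODE M21. The annotated long transcript, Neat1-201, is 1 exon of 20771 bases. The short transcript, Neat1-202, has 3004 bases, starts 2 bases downstream of the long one and ends at position 3172 of it. The remaining 17599 bases, 84.7% of the long RNA, have no counterpart in the short one. The stretch around the short 3′ end is shown as RNA letters in DNA code, 60 bases before the end and 40 after it, with the polyadenylation signal in capitals.
Neat1 short 3′ end, chr19:5842267-5842366, minus strand: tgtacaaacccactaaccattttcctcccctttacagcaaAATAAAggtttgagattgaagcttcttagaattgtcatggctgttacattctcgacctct
The AATAAA hexamer starts 20 bases before the annotated end, and its reverse complement TTTATT is not in those 60 bases. Among 141515 annotated mouse transcripts, 27.2% hold AATAAA in their last 60 bases and 4.82% hold TTTATT, so the match alone is common. The long transcript holds 6 copies of AATAAA in all and 0 in its last 100 bases. Its known 3′ end is cut by RNase P and protected by a triple helix that pairs U-rich stretches with an A-rich tail, and the last 60 bases are shown for that reason, with nothing marked.
Neat1 long 3′ end, chr19:5824708-5824767, minus strand: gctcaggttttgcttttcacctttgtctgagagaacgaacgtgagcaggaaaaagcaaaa
The short transcript is also annotated with 1 intron of 166 bases that the long transcript keeps, and it is shown with 20 bases on each side and with its GT and AG borders in capitals.
Neat1 short-transcript intron, chr19:5844739-5844944, minus strand: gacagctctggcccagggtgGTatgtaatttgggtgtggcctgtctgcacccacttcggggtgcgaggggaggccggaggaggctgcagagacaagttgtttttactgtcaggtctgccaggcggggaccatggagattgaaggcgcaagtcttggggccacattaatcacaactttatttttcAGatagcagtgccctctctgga

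Neat1 was the most abundant member by a wide margin. It had 228384 expected counts (the program's estimate of fragments per gene) in replicate 2 and 385793 in replicate 1, which was 1.22% of all gene counts in replicate 2 and 2.12% in replicate 1 (mean 1.67% ± 0.634, SD, n = 2). The exact Clopper-Pearson 95% intervals of these shares ran from 1.22% to 1.23% and from 2.11% to 2.13%, and they cover counting error only. Neat1 ranked 4 among all genes by scaled count. Per length, it stood at 1295 TPM in replicate 2 and 2357 in replicate 1, a mean of 1826 ± 751 TPM (SD, n = 2), and ranked 4 among 5854 lincRNA genes. The second deposited quantification gave 919 TPM in replicate 2 and 847 in replicate 1. The libraries thus differed in opposite directions in the 2 tables on the TPM scale, while the count share was lower in replicate 2 in both tables, at 0.982% in replicate 2 and 1.62% in replicate 1 in the second.

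TPM is scaled within each table over every entry, and its scale moved between tables. The median log2 ratio of second-table over first-table TPM was -0.038 over 12862 genes in replicate 2 and -0.95 over 12382 genes in replicate 1. The median log2 TPM ratio of replicate 2 over replicate 1 in the first table was -0.35 over the 15558 genes tested. Differences between libraries are therefore given on scaled counts, and TPM is used to compare genes.

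**Figure D1:**
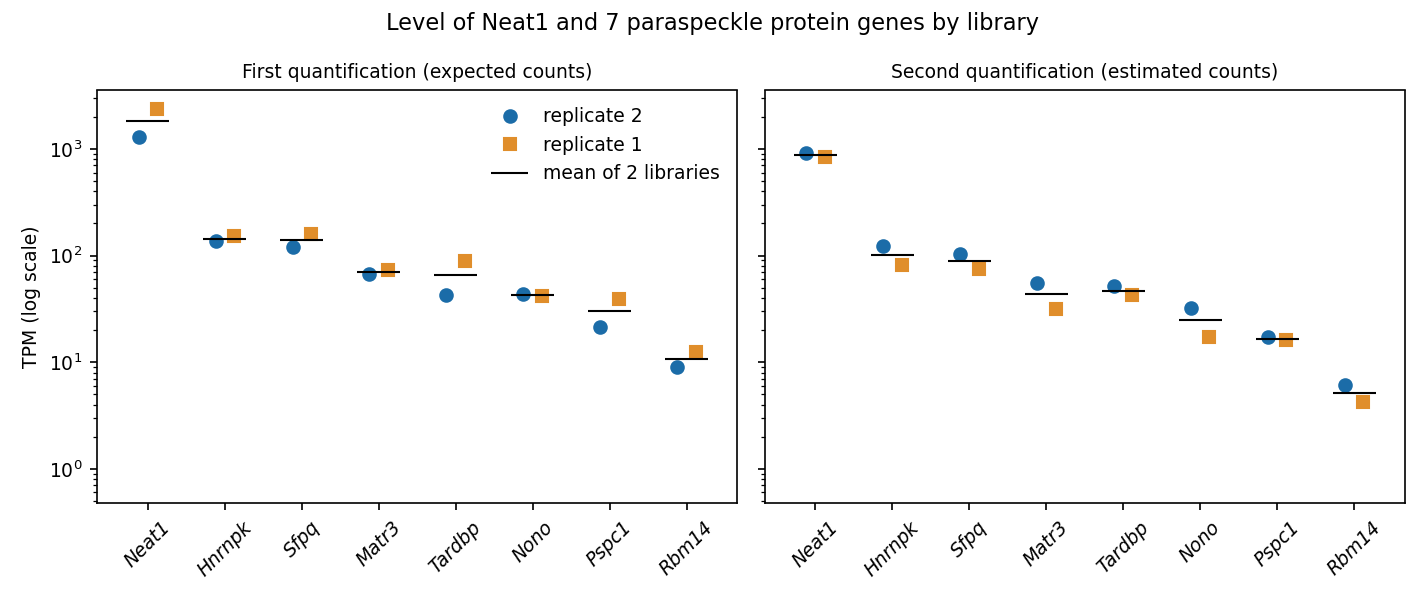
TPM on a log axis of each of the 8 genes in replicate 2 (circles) and replicate 1 (squares), with the mean of 2 libraries as a bar, in the first (left) and second (right) deposited quantification. Neat1 lies far above the 7 protein genes in both, between 847 and 2357 TPM, and Rbm14 lies lowest, between 4.20 and 12.4 TPM.

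Set against other long nuclear noncoding RNAs, Neat1 was well below its neighbour Malat1, the main long RNA of nuclear speckles, a gene on the same strand with 22035 bases between them. Neat1 counts were 12.0% of Malat1 counts in replicate 2 and 21.8% in replicate 1, and the second table gave 12.4% and 22.2%. Malat1 stood at 30754 TPM in replicate 2 and 21749 in replicate 1. Xist, which silences 1 X chromosome in female cells, stood at 345 TPM in replicate 2 and 473 in replicate 1, and Neat1 had 1.67 and 3.05 times its counts. Slc7a2, the mouse gene whose CTN-RNA transcript is held in paraspeckles, was low, with 45 counts (0.31 TPM) in replicate 2 and 43.0 counts (0.37 TPM) in replicate 1. The second table gave it 369 counts (1.08 TPM) in replicate 2 and 225.5 counts (0.48 TPM) in replicate 1, so its level depends on the program.

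By level across the 2 libraries, measured as the Euclidean distance on the log2(TPM + 0.1) scale, the genes nearest to Neat1 in the first table were the lysosomal protease genes Ctsd and Ctsb and the small nucleolar RNA Gm23262. Ctsd was at 1660 TPM in replicate 2 and 1929 in replicate 1, at a distance of 0.46. Ctsb was at 1876 and 2408 TPM, at a distance of 0.54, and Gm23262 at 942 and 3166 TPM, at a distance of 0.63. The Gm23262 level rests on 275 counts in replicate 2 and 602 in replicate 1, over an effective length of 12.6 bases in replicate 2, and the second table put it at 248 and 355 TPM, well below Neat1. With 2 libraries this measure compares levels and little else.

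Most Neat1 counts fell on the long transcript, and most Neat1 molecules, counted per length, were assigned to the short one. Neat1-201 had 171640 counts in replicate 2 and 306998 in replicate 1, which was 75.2% (95% interval 75.0% to 75.3%) and 79.6% (79.4% to 79.7%) of the gene's counts. The mean share was 77.4% ± 3.13 (SD, n = 2), and the second table gave 72.8% ± 3.60 (SD, n = 2). Neat1-202 had 55744 counts in replicate 2 and 77480 in replicate 1. The long transcript's share was lower in replicate 2 in both tables, by more than the counting error of each share.

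On the TPM scale the long transcript was at 360 TPM in replicate 2 and 786 in replicate 1, and the short transcript at 858 TPM in replicate 2 and 1458 in replicate 1. The short transcript thus stood at 2.38 times the long one in replicate 2 and 1.86 times in replicate 1, a mean ratio of 2.12 ± 0.371 (SD, n = 2). In the second table the ratios were 3.08 in replicate 2 and 2.39 in replicate 1. The first 3172 positions of the long transcript are nearly all shared with the short one, so this split is an estimate of each program, and reads of those positions cannot be assigned directly.

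The minor transcripts added little. Neat1-203, spliced within the 5′ part, had 239 counts in replicate 2 and 605 in replicate 1. Neat1-204, near the 3′ end, had 761 and 710 counts in the first table but 10.7 and 19.4 in the second, so its level differed between the programs far more than between the libraries.

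**Figure D2:**
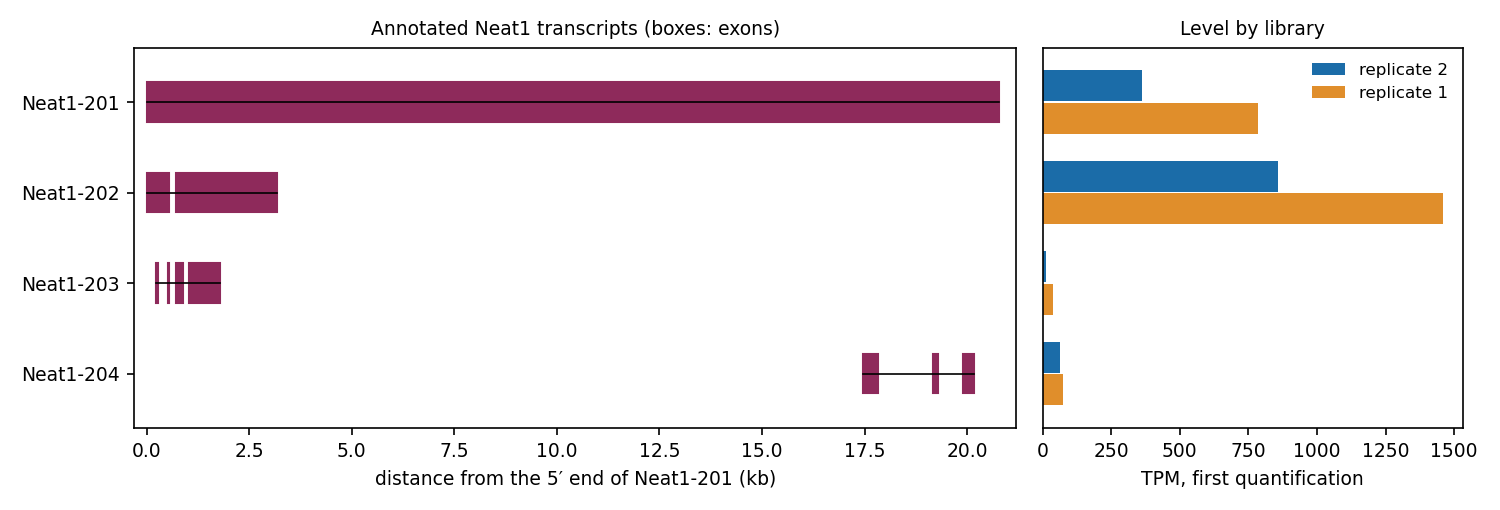
Left, exons (boxes) of the 4 annotated Neat1 transcripts against distance in kb from the 5′ end of Neat1-201; right, their TPM in replicate 2 (upper bar) and replicate 1 (lower bar) in the first quantification. Neat1-202 ends within the first part of Neat1-201 and has the highest TPM, 858 in replicate 2 and 1458 in replicate 1.

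Sfpq was the most abundant of the family trio, Nono came next and Pspc1 was lowest. Sfpq (chromosome 4, 127021324 to 127037013, plus strand), whose protein is a splicing factor and is needed to build paraspeckles, was at 121 TPM in replicate 2 and 160 in replicate 1 (141 ± 27.3, SD, n = 2). Nono (chromosome X, 101429318 to 101448591, plus strand), its usual partner, was at 43.2 TPM in replicate 2 and 41.5 in replicate 1 (42.4 ± 1.26, SD, n = 2). Pspc1 (chromosome 14, 56720710 to 56778316, minus strand), the paraspeckle component not needed for assembly, was at 21.3 TPM in replicate 2 and 39.0 in replicate 1 (30.2 ± 12.5, SD, n = 2). The 3 genes did not overlap in TPM in either table, and they ranked 248, 1199 and 1856 among 22015 nuclear-encoded protein-coding genes.

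The 4 other protein genes spanned the range of the trio and went below it. Hnrnpk (chromosome 13, 58391142 to 58403343, minus strand), which encodes an hnRNP that binds C-rich RNA, was at 137 TPM in replicate 2 and 152 in replicate 1 (145 ± 11.1, SD, n = 2). Matr3, on chromosome 18, which encodes the nuclear matrix protein matrin 3, was at 67.5 TPM in replicate 2 and 72.8 in replicate 1 (70.2 ± 3.78, SD, n = 2). Tardbp (chromosome 4, 148612382 to 148627019, minus strand) was at 43.1 TPM in replicate 2 and 88.3 in replicate 1 (65.7 ± 32.0, SD, n = 2). These 3 ranked 235, 604 and 663.

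Rbm14 (chromosome 19, 4800569 to 4811634, minus strand), whose protein carries a prion-like domain and is needed for paraspeckles, was the least abundant member. It was at 9.02 TPM in replicate 2 and 12.4 in replicate 1 (10.7 ± 2.39, SD, n = 2) and ranked 4688. Its annotation overlaps Gm21992 on the same strand, which had 86.1 counts in replicate 2 and 278 in replicate 1, so part of the reads may have been split between the 2 genes.

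In order of mean TPM the members ran Neat1, Hnrnpk, Sfpq, Matr3, Tardbp, Nono, Pspc1 and Rbm14. Hnrnpk and Sfpq overlapped over the 2 libraries, as did Matr3 and Tardbp, and Tardbp and Nono, while the other neighbours did not. The second table kept every neighbour order in both libraries except that of Matr3 and Tardbp. The median of the 7 protein genes was 43.2 TPM in replicate 2 and 72.8 in replicate 1, against 8.04 and 10.4 TPM over 10271 protein-coding genes with a mean of 1 TPM or more. Neat1 TPM was 2.93 times the summed TPM of the 7 protein genes in replicate 2 and 4.16 times in replicate 1.

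The libraries were next compared as the log2 ratio of replicate 2 over replicate 1 on counts scaled by TMM, which sets library sizes from the bulk of genes, with an exact binomial 95% counting interval. Beyond counting error, 5 members were lower in replicate 2, where 25.6% of all 15558 genes tested were, and 1 was higher, where 24.5% of all genes were. No member passed 2-fold, against 3.66% of genes lower and 4.36% of genes higher by that much. An interval narrows with depth, so abundant genes clear their counting error more easily. The median ratio of the 8 members was -0.12, and that of all genes tested was 0.0035.

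On scaled counts Neat1 showed the widest difference of the 8, lower in replicate 2 with a log2 ratio of -0.70 (-0.70 to -0.69). Its interval is narrow because of its depth, and 18.5% of all genes tested differed by more than Neat1 in either direction. Among the 100 genes of highest scaled count, 10 were lower in replicate 2 than Neat1. Malat1 and Xist were higher in replicate 2, with ratios of 0.16 (0.16 to 0.16) and 0.17 (0.16 to 0.19), so the nuclear RNAs did not differ alike. Within Neat1 the long transcript had a ratio of -0.78 (-0.79 to -0.77) and the short one -0.42 (-0.43 to -0.40), and the second table gave -0.86 and -0.48.

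Nono was the 1 member higher in replicate 2 beyond counting error, with 1581 counts in replicate 2 and 1213 in replicate 1 and a log2 ratio of 0.44 (0.33 to 0.55). On deposited TPM its ratio was 0.061, which was not clear of counting error, against the all-gene median of -0.35. Nono shares 22.0% of its 31-base words with other genes, mainly its processed pseudogenes, and reads could be split between them. Its partners did not share its direction. Sfpq had 5024 counts in replicate 2 and 5539 in replicate 1 and a log2 ratio of -0.081 (-0.14 to -0.026), and Pspc1 had 1100 and 1344 counts and -0.23 (-0.35 to -0.11). Pspc1 shares 0 such words with any other gene.

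Tardbp and Hnrnpk were slightly lower in replicate 2. Tardbp had 3350 counts in replicate 2 and 3978 in replicate 1, with a log2 ratio of -0.19 (-0.26 to -0.12), and Hnrnpk had 3311 and 3704 counts, with -0.10 (-0.17 to -0.034). Tardbp was the 1 member past 2-fold when the ratio was taken on deposited TPM, at -1.03 against the all-gene median of -0.35. Matr3, with 2656 counts in replicate 2 and 2623 in replicate 1, had a ratio of 0.078 (-0.00078 to 0.16), and with library totals in place of TMM it was -0.019, so its direction is not firm. Rbm14, with 644 and 742 counts, had -0.14 (-0.30 to 0.0094). It was lower in replicate 2 under every setting tried, and beyond counting error in 4 of them, among them library totals, at -0.24.

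**Figure D3:**
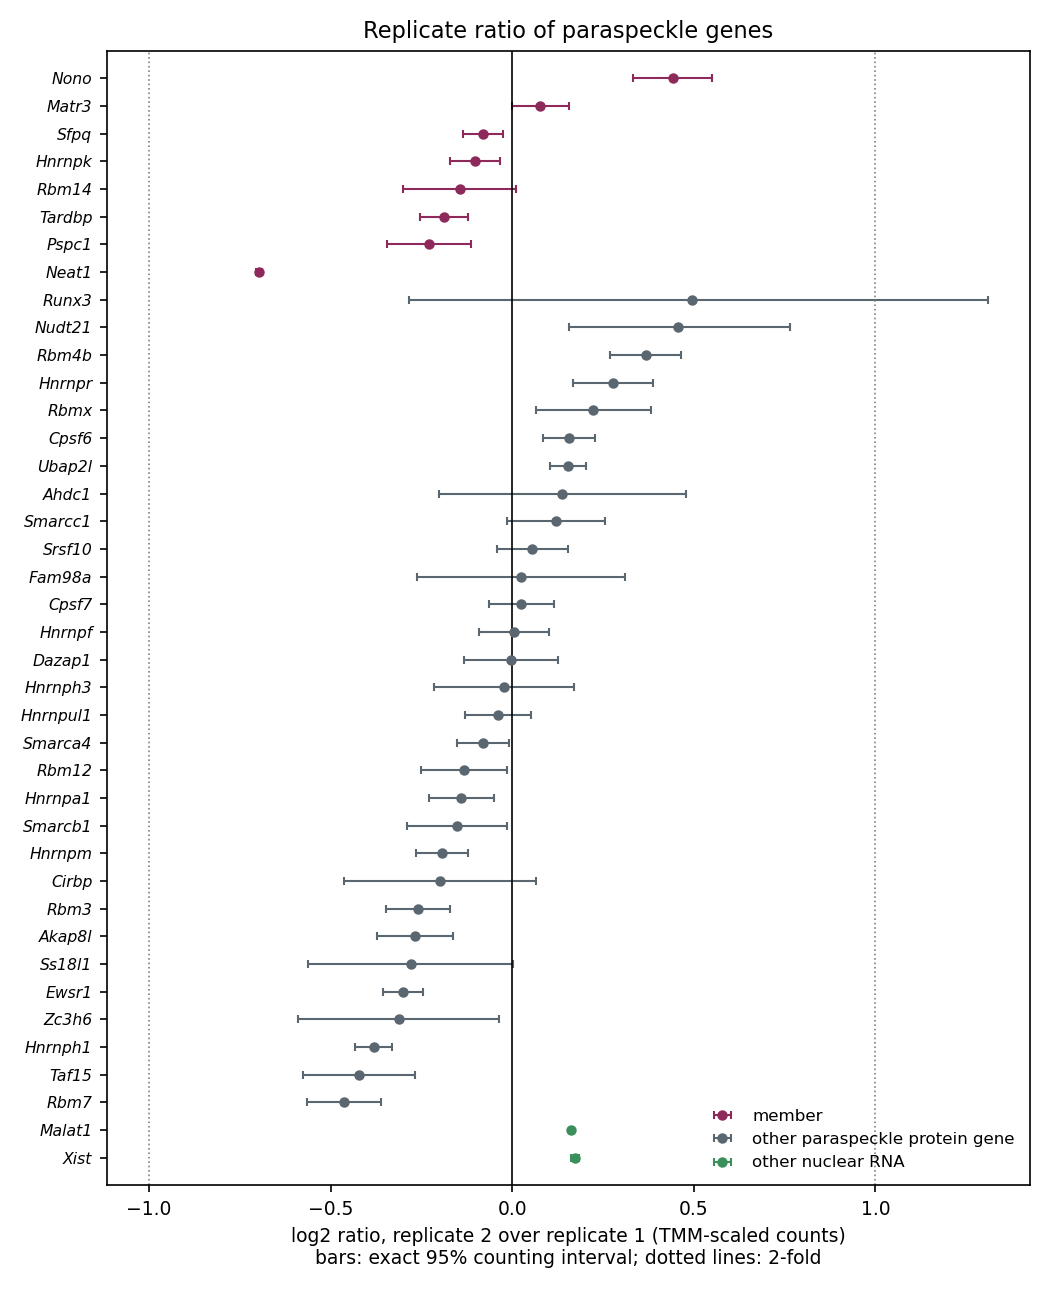
Log2 ratio of replicate 2 over replicate 1 on TMM-scaled counts for the 8 members, 30 of the other paraspeckle protein genes, Malat1 and Xist; bars are exact 95% counting intervals and dotted lines mark 2-fold. Neat1, at -0.70, lies lowest of all genes shown, and no point passes a dotted line.

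Most other known paraspeckle protein genes were also expressed. In the first table, 30 of 31 listed genes stood at 1 TPM or more in both libraries. By a looser rule, a mean of 1 TPM or more, 10271 of 22015 nuclear-encoded protein-coding genes were expressed. The median of the 7 members, 43.2 TPM in replicate 2 and 72.8 in replicate 1, lay above that of the 31, which was 25.1 TPM in replicate 2 and 33.4 in replicate 1. Among the most abundant were Ewsr1, an RNA-binding protein gene, at 195 TPM in replicate 2 and 272 in replicate 1, and Hnrnph1, which encodes an hnRNP that binds G-rich RNA, at 157 and 244 TPM. Ubap2l, whose protein is also found in stress granules, was at 135 and 173 TPM. The lowest in the first table was the transcription factor gene Runx3, at 0.66 TPM in replicate 2 and 0.90 in replicate 1. Next came Ahdc1, at 2.34 and 2.21 TPM. The second table put Runx3 at 2.78 TPM in replicate 2 and 0.52 in replicate 1, so its level depends on the program.

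Between the libraries, 13 of the 31 were lower in replicate 2 beyond counting error, 6 were higher, 12 were not clear of 0 and 0 passed 2-fold. Their median log2 ratio was -0.039. Of all genes tested, 25.6% were lower and 24.5% higher. Hnrnph1 had a ratio of -0.38 (-0.43 to -0.33) and Ewsr1 of -0.30 (-0.36 to -0.24). Ubap2l went the other way, at 0.15 (0.10 to 0.20). Runx3, not clear of 0 in the first table at 0.50 (-0.28 to 1.31), was past 2-fold in the second, at 1.35 (0.99 to 1.73).

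Nuclear RNA can hold transcripts that keep an intron or that the cytoplasm would degrade, so the annotated classes of each member's transcripts were compared. The members have 106 annotated transcripts, and 32 had 0 counts in both libraries in the first table. The second table gave some of these counts, such as Tardbp-216 with 62.8 in replicate 2 and 90.9 in replicate 1. No share over all annotated transcripts is set beside this count, so it is not read as a trait of the members. Sfpq and Rbm14 have no transcript annotated as retained intron or as a target of nonsense-mediated decay, the pathway that removes RNAs with an early stop. In Matr3, Nono and Hnrnpk, transcripts annotated as retained intron took about as much TPM as coding ones or more.

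Matr3 had the highest retained-intron share of TPM, 60.1% in replicate 2 and 53.0% in replicate 1 (56.6% ± 5.04, SD, n = 2), while in the second table Nono, at 54.0%, and Matr3, at 53.5%, were close. Nono had 43.0% in replicate 2 and 51.6% in replicate 1, and Hnrnpk 46.9% and 47.6%. Pspc1 was lower, at 16.0% in replicate 2 and 22.7% in replicate 1, all on Pspc1-203. Tardbp's only such transcript, Tardbp-225, was at 0% in replicate 2 and 11.3% in replicate 1, while the second table put it at 17.0% and 19.9%, so its level is uncertain. The median over these 5 members was 45.3% ± 3.30, against 32.5% ± 0.671 over the 6517 genes that have such transcripts and average at least 1 TPM (SD, n = 2). Of the 5, 3 lay above the all-gene median.

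Short transcripts gain weight on the TPM scale, and by counts the contrast nearly closed. The median share of counts was 20.8% in the 5 members and 19.6% over the 6517 genes. Matr3 kept the highest share, 36.1% ± 4.33 (SD, n = 2) of its counts, and 70.6% of those genes lay below it. Nono had 25.0%, Hnrnpk 22.7% and Pspc1 3.20%. Matr3-203 and Matr3-212, single exons with 96.9% and 100% of their bases in introns of Matr3-207, had 473 and 367 counts in replicate 2 and 372 and 363 counts in replicate 1. Matr3-207, the coding transcript with most counts in the first table, had 612 counts in replicate 2 and 911 in replicate 1, while the second table gave Matr3-201 more, 1295 and 1080 counts against 526 and 660. A read from unspliced precursor RNA would also be assigned to such transcripts. Matr3 also overlaps Gm36989 on the same strand, which had 390 counts in replicate 2 and 409 in replicate 1. The second table gave Gm36989 555 and 482 counts, and its bearing on the Matr3 shares was not tested.

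Complete introns that coding transcripts remove are kept in annotated transcripts of Nono and Hnrnpk. Examples are shown from the exon end through the first stop codon in frame, with the GT that opens the intron and the stop codon in capitals.
Nono-204, intron 9 of 11 of Nono-201, 504 bases, chrX:101444791-101445294, plus strand: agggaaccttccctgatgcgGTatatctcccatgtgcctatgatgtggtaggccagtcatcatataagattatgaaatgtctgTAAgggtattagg
Hnrnpk-206, intron 12 of 15 of Hnrnpk-224, 207 bases, chr13:58393869-58394075, minus strand: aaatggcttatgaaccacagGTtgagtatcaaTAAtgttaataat
The stop codon TAA begins at base 64 of the Nono intron and at base 13 of the Hnrnpk intron. Nono-204 had 113 counts in replicate 2 and 126 in replicate 1, against 1251 and 853 counts of the coding Nono-201. Nono-205, the retained-intron transcript of highest mean TPM, was at 8.12 TPM in replicate 2 and 6.67 in replicate 1, where Nono-202 was higher, at 7.12. Hnrnpk-206 had 116 counts in replicate 2 and 143 in replicate 1. Hnrnpk-204, which takes 55.1% of its bases from 1 intron without holding all of it, was at 23.9 TPM in replicate 2 and 20.7 in replicate 1, close to Hnrnpk-210, the coding transcript of highest mean TPM, at 23.9 and 15.6 TPM. Hnrnpk-210 itself has 73.0% of its bases in introns of Hnrnpk-224, and in replicate 1 it lay below Hnrnpk-224, which was at 12.5 TPM in replicate 2 and 22.4 in replicate 1.

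Some noncoding Sfpq transcripts with intron sequence are annotated under another class. Its 5 transcripts annotated as processed transcript took 56.9% of its TPM in replicate 2 and 54.6% in replicate 1 (55.7% ± 1.68, SD, n = 2), but 20.1% ± 1.78 of its counts. Sfpq-204, the largest, was at 29.7 TPM in replicate 2 and 38.0 in replicate 1 and has 51.4% of its bases in 1 intron of Sfpq-201. Sfpq-202 and Sfpq-205 have 55.1% and 64.5% of theirs in such introns, but Sfpq-203 has 3.18% and Sfpq-206 0%, so the class share is not a share of intron sequence. Sfpq-206 had 354 counts in replicate 2 and 247 in replicate 1. Sfpq-201, the only coding transcript, was at 52.2 TPM in replicate 2 and 72.7 in replicate 1. In Nono and Tardbp this class was minor, with Nono-207 at 1.80 TPM in replicate 2 and 0.99 in replicate 1, and Tardbp-222 at 2.18 and 0 TPM. Sfpq overlaps Gm12940 on the same strand, which had 264 counts in replicate 2 and 277 in replicate 1.

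Tardbp and Pspc1 had the highest shares of TPM on transcripts annotated for nonsense-mediated decay. Such transcripts took 38.7% of Tardbp TPM in replicate 2 and 25.3% in replicate 1 (32.0% ± 9.47, SD, n = 2), and 90.6% of 3195 genes with such a transcript lay below it. Pspc1 had 18.3% in replicate 2 and 24.9% in replicate 1, all on Pspc1-204, and 82.7% of those genes lay below it. By counts Tardbp had 11.3% and Pspc1 4.36%, with 72.8% and 57.9% of those genes below them, and by counts in the second table Pspc1, at 5.14%, came after Matr3, at 7.38%. Hnrnpk had 2.41% ± 0.295 (SD, n = 2), and Matr3 had 0% in replicate 2 and 1.07% in replicate 1. The Matr3 value rests on Matr3-213, which had 0 and 25.0 counts in the first table but 273 and 295 in the second, and Hnrnpk-203 led its gene's decay transcripts with 36.6 and 21.4 counts. The median of the 4 was 12.0% ± 2.45, against 4.15% ± 0.724 over the 3195 genes (SD, n = 2), and 2 of the 4 lay above it. By counts the medians were 2.72% and 1.94%.

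TDP-43 is known to limit its own mRNA by driving splicing within the 3′ part of Tardbp, which leaves RNAs that are kept in the nucleus or degraded. Of the 10 Tardbp transcripts annotated for decay, 8 share a 721-base intron (148616845 to 148617565) that lies beyond the stop codon of the main coding transcript, Tardbp-202. Tardbp-208 holds it and had 143 counts in replicate 2 and 178 in replicate 1. Apart from Tardbp-219, at 6.35 and 0 counts, the others with it had 0 counts in both libraries in the first table. The second table gave Tardbp-201, which also holds it, 47.7 counts in replicate 2 and 41.1 in replicate 1. Tardbp-228, the decay transcript of highest mean TPM though below Tardbp-208 in replicate 1 (10.7 against 11.6 TPM), instead joins exons across 4392 bases (148620733 to 148625124). Its junction, and that of Pspc1-204 across 13546 bases (56764245 to 56777790), is in no annotated coding transcript of its gene, and both are shown with the base after the junction starting the capitals.
Tardbp-228 junction, chromosome 4, minus strand: tcaactatcccaaagGTCAAGAAAGATCTT
Pspc1-204 junction, chromosome 14, minus strand: ggcttcatccgcctgAACACCTCGTCCAGT
Tardbp-228 had 251 counts in replicate 2 and 245 in replicate 1, with a log2 ratio of 0.094 (-0.17 to 0.35). Pspc1-204 had 36.6 counts in replicate 2 and 72.5 in replicate 1, with -0.91 (-1.53 to -0.33), while its coding Pspc1-202 had 496 and 638 counts. Tardbp-202 was even between libraries, at 2578 counts in replicate 2 and 2565 in replicate 1.

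**Figure D4:**
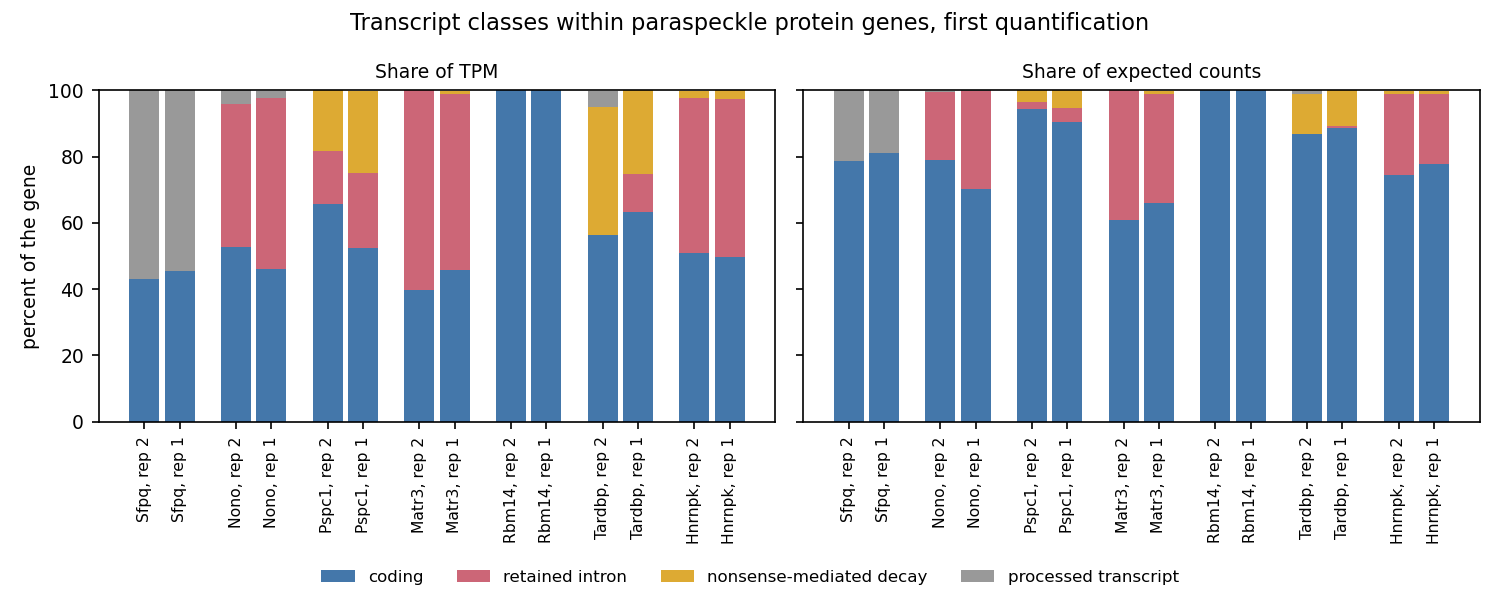
Share of each protein gene's TPM (left) and expected counts (right) on coding, retained-intron, nonsense-mediated-decay and processed transcripts, with replicate 2 left of replicate 1 for each gene. Retained-intron transcripts take 60.1% and 53.0% of Matr3 TPM but 39.2% and 33.1% of its counts, and Rbm14 is wholly coding.

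Within genes, some transcripts differed between libraries far more than the gene did. Of 42 member transcripts with a mean of 50 or more counts in both tables, 6 differed by over 2-fold in the same direction in both, 3 higher and 3 lower in replicate 2, a rule chosen after the values were seen. Over all 22806 transcripts at that count, 9.8% met the same rule, 3.15% higher and 6.65% lower in replicate 2. Tardbp-204 had 328 counts in replicate 2 and 824 in replicate 1, a log2 ratio of -1.27 (-1.46 to -1.08), and -2.25 in the second table. It removes a 968-base intron (148617706 to 148618673) from within the last exon of Tardbp-202, with that transcript's stop codon. Hnrnpk-213, a short coding transcript, had 144 counts in replicate 2 and 9.95 in replicate 1. Its ratio was 3.84 (2.99 to 4.998), and 4.26 in the second table. The program's posterior standard deviation of these first-table counts was 26.2 in replicate 2 and 15.5 in replicate 1, and the interval leaves it out. Hnrnpk-213 is the only transcript of the gene with a 450-base intron (58393242 to 58393691). The junctions that set these 2 transcripts apart are shown in the same way.
Tardbp-204 junction, chromosome 4, minus strand: gtggaagatttggtgTTCATCTCATTTCAA
Hnrnpk-213 junction, chromosome 13, minus strand: actattcccaaagatGAACACAGGACCAGA
The Tardbp-204 junction is also annotated in 2 other Tardbp transcripts. Tardbp and Hnrnpk as whole genes differed by log2 ratios of -0.19 and -0.10 only. The other 4 were Neat1-203 with -1.28, Sfpq-205 with -1.02, Matr3-209 with 1.36 and Matr3-217. Matr3-217 had 342 counts in replicate 2 and 0 in replicate 1 in the first table, but 262 and 50.6 in the second. Its posterior standard deviation in the first table was 76.94 counts in replicate 2 and 27.05 in replicate 1. Rbm14 divided between its 2 main coding transcripts in opposite directions, since Rbm14-201 had 406 counts in replicate 2 and 307 in replicate 1, and Rbm14-202 had 239 and 435 counts.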

How the data were processed

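The authors deposited, for each library, a gene and a transcript table of a first quantification and a transcript table of a second. Per the file headers, the first gives expected counts, TPM, posterior-mean TPM, FPKM and a posterior standard deviation of each count, a never-negative signal, under the column names that RSEM writes. The second gives estimated counts and TPM under kallisto's names, per the file headers. The deposited notes name mm10 and GENCODE M21. Neither program versions nor settings, filters or strand were given in the sources used here.

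Members were found by symbol in the transcript names. Members and lists were chosen with earlier results of these data known. Expected counts were rounded for scaling with TMM (edgeR 4.0.16, R 4.3.3; DESeq2 1.42.0 as an alternative). Log2 ratios used a prior count of 0.5 and exact binomial 95% intervals. These were tested on simulated gene counts that held counting error only, so that test does not cover variation between libraries or read assignment. Entries that name no mouse gene, 0.207% of counts in replicate 2 and 0.823% in replicate 1, stayed out. Named beside the members were the 4 highest and 2 lowest of the 31 other paraspeckle genes, Malat1, Xist, Slc7a2, the 3 genes nearest to Neat1 and each member's highest transcript per class; 1 gene that the rule names is not reported here by name. Sums over transcripts gave the second table's gene values. The deposited FPKM was not used for results. The highest posterior standard deviation of a member's gene count was 0.845% of that count. Single transcripts could have a larger one, such as 15.5 on the 9.95 counts of Hnrnpk-213 in replicate 1. The software was Python 3.11.15 with pandas 2.3.3, numpy 2.4.6, scipy 1.17.1 and matplotlib 3.10.9. Alternatives were other scalings, filters and prior counts, TPM ratios, posterior-mean TPM, the second quantification, shares of counts or TPM, and each library alone. Without molecular identifiers, reads are not independent molecules, and intervals cover counting error only.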

Additional observations from a re-analysis of the deposited data

How the results depend on the processing

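With the ratio on deposited TPM, 1 member passed 2-fold instead of 0, and the median ratio of the other paraspeckle protein genes was -0.40 instead of -0.039, beside an all-gene median of -0.35 on that scale. Members beyond counting error numbered 6 with TMM and 7 with DESeq2 size factors, library totals, TPM or the second quantification. Rbm14 joined under each of these 4, at -0.18, -0.24, -0.45 and -0.19. On TPM the 7 were not the 6 plus Rbm14. Nono, at 0.061, was no longer clear of counting error, and Matr3, at -0.11, was. Those TPM intervals were set against 0, not against the all-gene median of -0.35. Shares over all genes were computed with TMM only. Beyond counting error they were 25.6% lower and 24.5% higher in replicate 2, and past 2-fold 3.66% and 4.36%. The long share of Neat1 counts, 77.4%, was 30.6% as a share of TPM and 72.8% in the second quantification. The median retained-intron share of 45.3% was 20.8% as a share of counts, and the median decay share of 12.0% was 2.72% as a share of counts and 14.6% in the second quantification. TPM divides counts by transcript length, and the cause of the other moves was not tested. With each library alone, the Neat1 count share ran from 1.22% to 2.12%, the long share from 75.2% to 79.6%, the retained-intron median from 43.0% to 47.6% and the decay median from 10.3% to 13.7%. A ratio between 2 libraries has no value with 1 left out. No paired analysis was possible because there was 1 group. Of 31-base words, Tardbp shares 23.8% with other genes, mostly on the opposite strand of Masp2, Nono 22.0%, Hnrnpk 21.1%, Rbm14 18.7%, Matr3 18.1% and Sfpq 6.42%, and reads of such words could be split between genes. The strand setting is unknown, which bears on Tardbp, Hnrnpk, Rbm14 and Matr3, whose shared words include those of genes on the opposite strand.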
